A study of Rattus norvegicus with 4 samples.

Results

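The antigen processing and major histocompatibility complex (MHC) genes of the rat were followed across 4 astrocyte cultures. They were taken by name: probes whose only gene symbol was 1 of 28 listed genes or began with RT1-, the rat name for the MHC. Of the 28 listed genes, 25 had such a probe, and 29 further RT1 genes were found, which gave 54 genes of 18166 measured, each with 1 probe. RT1-A1, RT1-A2 and RT1-CE1 were covered here only by probes assigned to several genes and were not analysed here. Of the 54 genes, 35 had a highest log2 signal at or above 5.83, the median of the whole table, and are described first. The other 19 lay between 3.15 and 5.77 on all 4 arrays.

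The cells were primary astrocytes, star-shaped glial cells, from the cerebral cortex of Sprague-Dawley rats aged 1 day, held in serum-free medium for 2 days to deplete microglia and meningeal cells. All 4 cultures had been transfected with an siRNA. Control siRNA went into an untreated culture, a culture with interferon-γ (IFN-γ, a cytokine of activated lymphocytes) and a culture with IFN-γ plus the compound named GW in the labels. The last culture received an siRNA against SHP, with IFN-γ and GW. Treatment lasted 3 h, and neither doses nor the number of pups behind a culture were used here. Each culture was hybridised to 1 array, so no difference below has a replicate check or a p-value, and each describes a pair of single cultures. Nr0b2, the gene also known as SHP, had log2 signals of 5.33 untreated, 5.14 with IFN-γ, 5.20 with GW added and 3.45 with the siRNA against it, all below the table median. The median log2 signal over 29489 probes ran from 5.79 to 5.87. In bulk RNA, fewer cells of a type and less RNA per cell cannot be told apart.

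Nearly all cells show their internal proteins on MHC class I. The proteasome cuts proteins into peptides, the TAP transporter carries them into the endoplasmic reticulum, tapasin and the aminopeptidase ERAP1 help to load and trim them, and a heavy chain with β2-microglobulin takes them to the surface. Interferons replace catalytic subunits of the constitutive proteasome with those of the immunoproteasome. Class II presents peptides from endosomes, is found mainly on professional antigen-presenting cells and, in the brain, on activated microglia, and depends on the transactivator CIITA, while NLRC5 serves class I genes. IFN-γ is the classical inducer of both pathways, with IRF1 and CIITA among the factors that act in it.

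The promoters of 6 members are shown. Their genes gave some of the widest differences of the peptide loading, immunoproteasome and class II groups, or share one regulatory stretch. No class I heavy chain promoter is shown, although RT1-M3-1 had a wide difference with GW (-0.92). The sequences are those of RefSeq for rat assembly GRCr8, cover the 250 bases before the annotated start site and read 5′ to 3′ on the gene's own strand. Of the 54 genes, 48 had a promoter in that table. Capitals mark matches on either strand to an interferon-stimulated response element (ISRE-type, GAAA and GAAA with NN between them), a GAS-type palindrome (TTCNNNGAA), the Y box of MHC promoters (CCAAT), its neighbouring CREB-type element (X2 type, TGACGNNA) or a κB-type element (GGGANTTCC), and none of the matches overlap in these 6 sequences. Tap1 (chr20:4668544-4668793, minus strand) and Psmb9 (chr20:4668750-4668999, plus strand) are transcribed away from each other from start sites with 456 bases between them, and their windows share 44 bases. The others are Psmb10 (chr19:50743293-50743542, minus strand), Psme2 (chr15:33052752-33053001, minus strand), the cathepsin gene Ctss (chr2:185775146-185775395, plus strand) and the class II gene RT1-Da (chr20:4515165-4515414, plus strand).
Tap1: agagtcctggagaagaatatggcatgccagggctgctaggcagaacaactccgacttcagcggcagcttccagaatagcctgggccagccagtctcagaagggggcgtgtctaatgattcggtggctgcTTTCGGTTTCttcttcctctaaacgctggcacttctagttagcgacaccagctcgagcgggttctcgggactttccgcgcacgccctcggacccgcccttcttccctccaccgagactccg
Psmb9: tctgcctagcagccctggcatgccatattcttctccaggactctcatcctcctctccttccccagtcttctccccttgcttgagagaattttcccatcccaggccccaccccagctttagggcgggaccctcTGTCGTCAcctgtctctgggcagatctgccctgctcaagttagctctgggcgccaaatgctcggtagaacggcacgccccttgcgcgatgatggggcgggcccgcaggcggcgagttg
Psmb10: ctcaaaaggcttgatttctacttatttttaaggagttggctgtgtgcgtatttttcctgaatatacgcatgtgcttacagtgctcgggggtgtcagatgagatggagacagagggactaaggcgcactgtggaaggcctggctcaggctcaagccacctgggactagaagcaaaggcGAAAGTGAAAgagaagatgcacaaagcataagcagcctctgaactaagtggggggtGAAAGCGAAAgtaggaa
Psme2: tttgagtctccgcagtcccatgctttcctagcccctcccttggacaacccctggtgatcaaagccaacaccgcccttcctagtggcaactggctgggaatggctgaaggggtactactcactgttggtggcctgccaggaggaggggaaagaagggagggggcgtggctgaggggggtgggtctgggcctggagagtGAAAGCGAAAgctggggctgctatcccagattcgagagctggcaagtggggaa
Ctss: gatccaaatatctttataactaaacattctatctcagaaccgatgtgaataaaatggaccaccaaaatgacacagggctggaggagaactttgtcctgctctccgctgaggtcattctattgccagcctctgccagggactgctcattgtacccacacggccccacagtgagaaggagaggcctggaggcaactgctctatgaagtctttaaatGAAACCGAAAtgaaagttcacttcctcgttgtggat
RT1-Da: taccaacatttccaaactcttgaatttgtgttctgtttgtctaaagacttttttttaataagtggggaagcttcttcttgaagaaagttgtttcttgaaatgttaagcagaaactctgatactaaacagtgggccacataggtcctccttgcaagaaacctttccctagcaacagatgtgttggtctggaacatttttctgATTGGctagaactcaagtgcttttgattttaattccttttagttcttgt

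Promoters of related class I genes resemble each other, so these counts are not independent. An ISRE-type match lay in the window of 10 of the 48 members (20.8%) and of 902 of all 27457 promoters (3.29%). Besides Tap1, Psmb10, Psme2 and Ctss above, the 10 were Tap2, Tapbp, B2m, RT1-S3, RT1-N3 and RT1-S2. Psmb10 held a pair of such matches, from 73 to 64 and from 17 to 8 bases before the start site, Psme2 had its match from 53 to 44, Ctss from 36 to 27 and Tap1 from 121 to 112. The Y box was found in 10 of 11 class II promoters (90.9%) and 18 of 28 class I and B2m promoters (64.3%), against 34.3% of all promoters. The GAS-type letters were in 3 members (6.25%, against 7.52% of all), the X2 type in 3 (6.25% against 6.42%) and the κB type in 2 (4.17% against 1.51%). A match is a description of the letters and does not show that a factor binds there. Likewise, a low count holds only for the letters and window chosen, because an element with other letters was not counted.

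**Figure D1:**
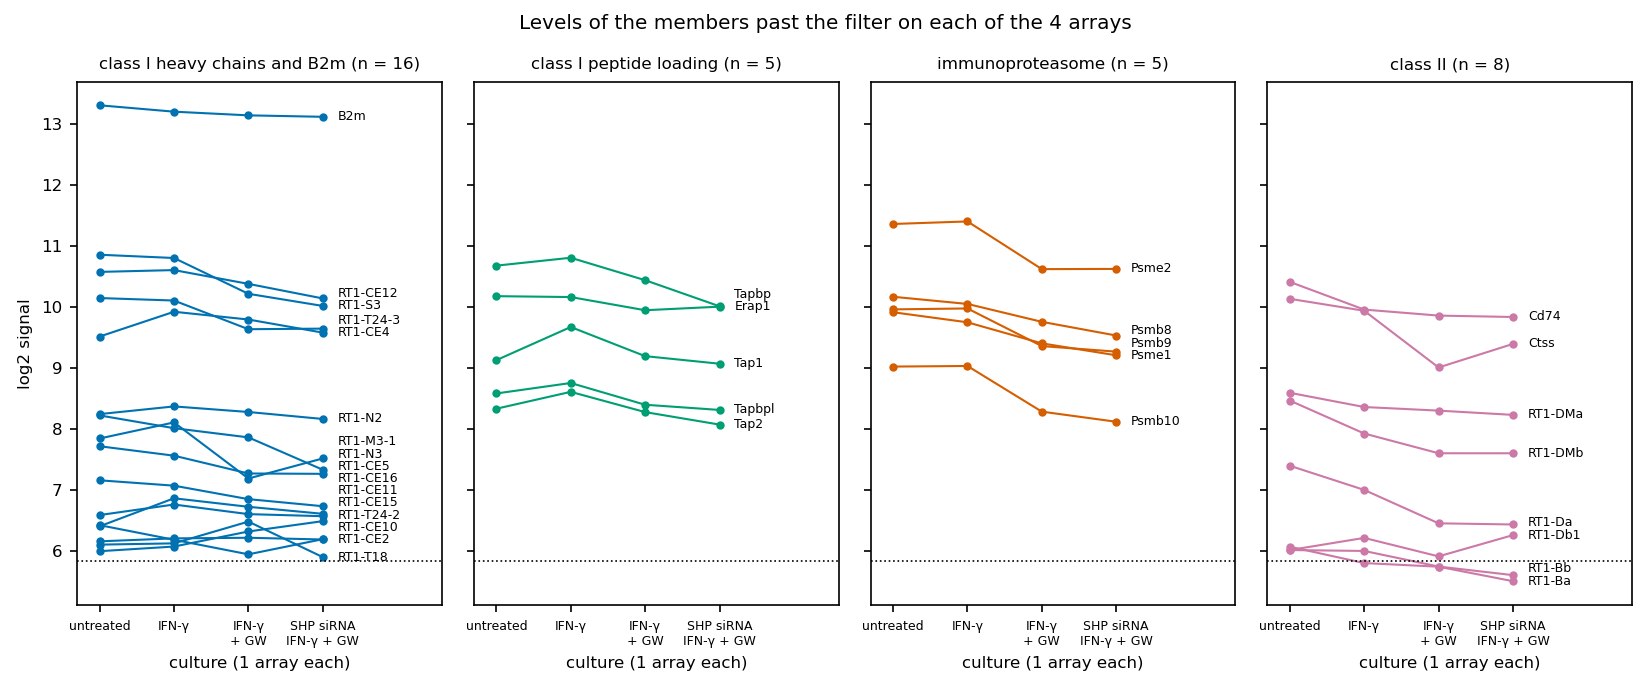
Log2 signal of the members past the filter in each of the 4 cultures, 1 array each, in 4 panels by group; points are single arrays, lines join the values of one gene and the dotted line is the table median of 5.83. Nlrc5, the only transactivator past the filter, is not drawn. The 5 immunoproteasome genes lie lower in both cultures with GW, while most class II genes are highest in the untreated culture.

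IFN-γ for 3 h was accompanied by little difference in this machinery. None of the 35 genes differed by 2-fold between the IFN-γ and untreated cultures (0 higher and 0 lower), where 224 of 11790 genes past the filter (1.90%) did so. At 1.5-fold the count was also 0 higher and 0 lower, against 3.02% and 1.59% of all genes. The median of the 35 was 0.01 on the log2 scale, against -0.04 for all genes, with 18 above 0 and 17 below, where 59.8% of all genes lay below 0. Of the 35, 1 gene lay outside the middle 95% of all differences, RT1-DMb.

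The widest higher difference was in peptide transport. Tap1, a subunit of the peptide transporter, had log2 signals of 9.12 untreated, 9.67 with IFN-γ, 9.19 with IFN-γ and GW, and 9.06 with SHP siRNA, IFN-γ and GW. The IFN-γ culture stood alone above the other three, which lay within a narrow band, and its difference from the untreated culture was 0.54 (1.46-fold, at the 96.7th percentile of all genes). Tap2, the partner subunit, had 8.33, 8.60, 8.27 and 8.07 in the same order, again highest with IFN-γ, at 0.28 above untreated. Tapbp, which encodes tapasin, the bridge between transporter and heavy chain, had 10.67, 10.80, 10.43 and 10.01. Tapbpl, which encodes the tapasin-related editor TAPBPR, had 8.58, 8.75, 8.39 and 8.31. Both were highest with IFN-γ and lowest with SHP siRNA. Erap1, the trimming aminopeptidase, had 10.17, 10.16, 9.94 and 10.00 and so showed no IFN-γ peak. The median IFN-γ difference of these 5 loading genes was 0.17, with 4 above 0.

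Psmb9, although its start site faces away from that of Tap1 across the same stretch, did not share the Tap1 pattern. It encodes a catalytic subunit of the immunoproteasome and had 9.96 untreated, 9.97 with IFN-γ, 9.35 with GW added and 9.26 with SHP siRNA. The first pair of cultures was level and the GW pair was lower. Psmb10, another catalytic immunosubunit, had 9.02, 9.03, 8.28 and 8.11. Psmb8, the remaining catalytic immunosubunit, had 10.16, 10.04, 9.75 and 9.53. Both genes were lowest with SHP siRNA. Psme1 and Psme2, the subunits of the PA28 proteasome activator, had 9.91, 9.74, 9.40 and 9.20, and 11.36, 11.40, 10.62 and 10.62. Across all 5 the IFN-γ differences stayed between -0.17 (Psme1) and 0.04 (Psme2), with a median of 0.01.

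The class I heavy chain genes and B2m, the light chain shared by class I molecules, were mixed. Of 30 such genes, 16 passed the filter, and 9 of these lay above 0 with IFN-γ and 7 below, with a median of 0.03. B2m varied little between arrays, with 13.30, 13.20, 13.14 and 13.11. RT1-CE11 (6.40, 6.86, 6.72 and 6.60) and RT1-CE4 (9.51, 9.92, 9.79 and 9.57) were lowest in the untreated culture and highest with IFN-γ, with differences of 0.46 and 0.41. RT1-CE10 lay at the other end, at -0.24. RT1-CE12 (10.57, 10.60, 10.37 and 10.14), RT1-N2 (8.24, 8.36, 8.27 and 8.16) and RT1-CE15 (6.58, 6.76, 6.60 and 6.56) were highest with IFN-γ, while RT1-CE5 (7.71, 7.56, 7.26 and 7.26) and RT1-CE16 (7.15, 7.07, 6.84 and 6.73) were highest untreated. All 5 were lowest with SHP siRNA, though RT1-CE5 differed there from its GW value by only -0.01. RT1-S3 differed by -0.05. The RT1 genes are close relatives of each other, and how far a probe of one responds to transcripts of another was not tested.

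Most class II genes were lower after IFN-γ. Of 12, 8 passed the filter, and 7 of the 8 lay below 0 with a median of -0.25. RT1-DMb, a chain of the peptide exchange factor DM, had 8.46 untreated, 7.92 with IFN-γ, 7.60 with GW and 7.60 with SHP siRNA. Its untreated value stood above the other three, and the IFN-γ difference was -0.54 (1.45-fold lower, at the 1.88th percentile of all genes). Cd74, the invariant chain that guards the class II groove, had 10.41, 9.95, 9.85 and 9.83, and RT1-Da, a classical class II α chain, had 7.39, 7.00, 6.45 and 6.43. Both again had their highest value in the untreated culture. RT1-DMa, the partner of RT1-DMb, had 8.59, 8.35, 8.30 and 8.23, a smaller step of -0.23. The exception among the 8 was RT1-Db1, a class II β chain, at 0.20 (6.01 and 6.21). RT1-Ba (6.06, 5.80, 5.74 and 5.50) and RT1-Bb (6.01, 5.99, 5.74 and 5.60) crossed the table median of 5.83, and array background was not measured here. RT1-Ba passed the filter only through the untreated culture. Its lower value with IFN-γ, counted among the 7, was therefore fixed by the way it passed.

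The transactivators differed little or were dim. Nlrc5 had 7.36 untreated, 7.55 with IFN-γ, 7.44 with GW and 7.28 with SHP siRNA. Ciita had 4.93, 5.47, 5.25 and 5.02, all below the table median, with its highest value in the IFN-γ culture. Of 12 measured factors that act at MHC promoters, 2 were at least 2-fold higher with IFN-γ and 0 lower. They were Irf1, which went from 9.44 to 12.07 (2.63), and Irf8, a factor prominent in myeloid cells, from 7.00 to 8.02 (1.01). Stat3 stood at 0.58, and Rfx5, a subunit of the RFX complex of the X box, at 0.31, while its partners Rfxank and Rfxap were at 0.17 and -0.23. The NF-Y genes Nfya, Nfyb and Nfyc were at -0.03, -0.07 and -0.19, and Creb1, Irf2 and Usf1 at 0.17, 0.14 and -0.18. Irf1 was far higher in the same culture in which the 35 presentation genes differed by less than 1.5-fold.

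Members with and without the ISRE-type letters had similar counts of higher and lower values with IFN-γ. Of the 9 members with a match that passed the filter, 5 lay above 0 and 4 below, with a median of 0.01. Of the 23 with a promoter and no match, 12 lay above 0 and 11 below, with a median of 0.02. Of all genes 59.8% lay below 0. RT1-Ba, among the 11, passed the filter only through the untreated culture, so its lower value was fixed by the way it passed. Tap1 had the highest value of the matched genes at 0.54, and RT1-N3 the lowest at -0.21. With GW against IFN-γ alone 9 of the 9 matched members were lower, with a median of -0.48 (B2m lay above 0 in centred arrays and after cyclic loess). Of the 23 unmatched 20 were lower, with a median of -0.23, where 57.8% of all genes were lower. RT1-Bb, among the 20, passed the filter only through the cultures without GW, so its lower value was fixed by the way it passed. With SHP siRNA 7 of 9 and 18 of 23 were lower, with medians of -0.17 and -0.09, where 48.4% of all genes were lower. An unmatched promoter lacks only these letters within 250 bases, so an element with other letters or farther away was not counted. Psmb9 is unmatched, although the Tap1 match lies in the stretch between the start sites of both genes. The matched members include 2 of the 5 immunoproteasome genes and 3 of the 5 loading genes, and whether the sets differ was not tested.

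**Figure D2:**
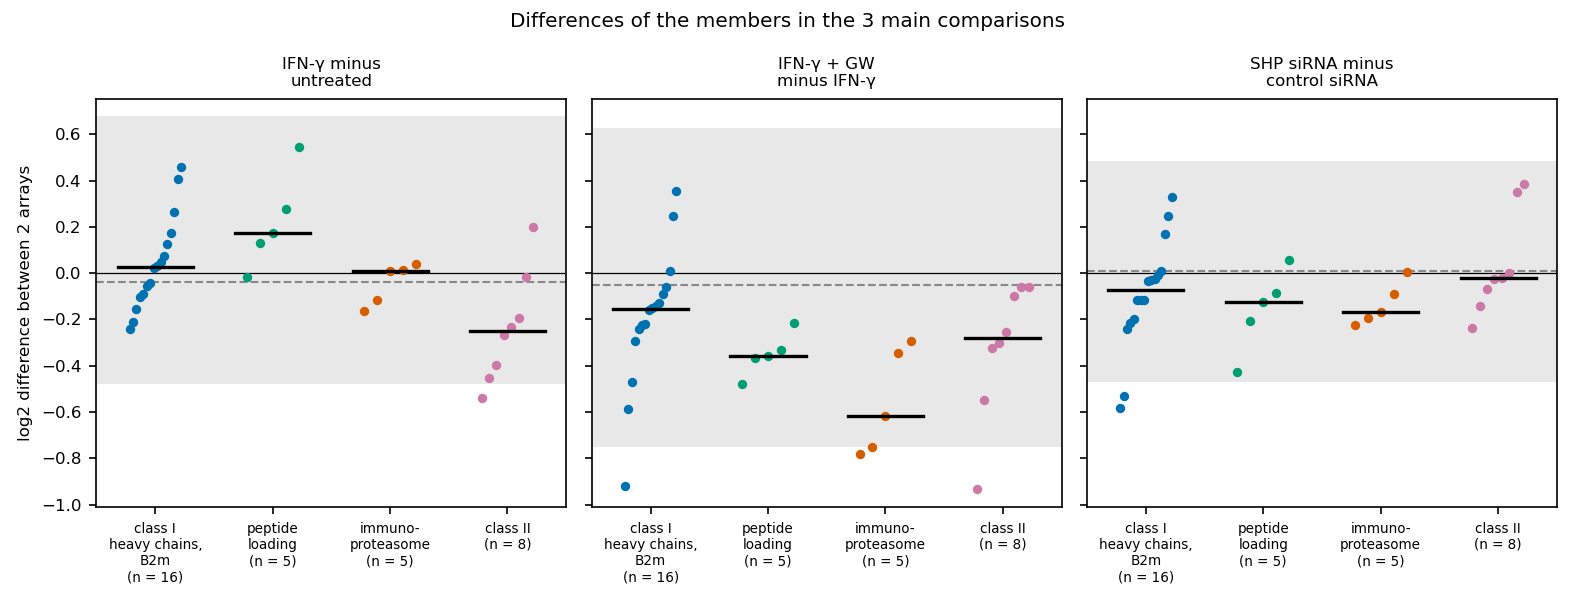
Log2 differences of the members past the filter in the 3 main comparisons, by group; points are genes, black bars are medians, the dashed line is the median of 11790 genes and the grey band holds the middle 95% of them. With GW the medians are -0.15 for class I heavy chains and B2m, -0.36 for peptide loading, -0.62 for the immunoproteasome and -0.28 for class II.

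Adding GW to IFN-γ went with lower values in every group. Of the 35 genes 32 were lower with GW than with IFN-γ alone, where 57.8% of all genes were lower, and the median difference was -0.26 against -0.05 for all genes. After each array was centred on its median 29 of the 35 lay below 0, and 45.4% of all genes. None differed by 2-fold (0 of 35, against 1.91% of all genes in either direction). At 1.5-fold 6 were lower (17.1%) and 0 higher, against 4.97% and 2.82% of all genes. Among the 19 members with a mean log2 signal of at least 8, all 19 were lower, where 64.7% of the 5209 genes of that level were, but B2m and RT1-DMa lay above 0 in centred arrays, and Cd74 as well after cyclic loess. This level was chosen after seeing the data. The GW comparison shares the IFN-γ culture with the comparison of IFN-γ and untreated, so its error enters both with opposite signs.

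The immunoproteasome stood lowest. All 5 of its genes were lower with GW, with a median of -0.62 on the log2 scale, and 3 of the 5 by at least 1.5-fold. Psme2 was 1.72-fold lower than with IFN-γ alone (-0.78, at the 2.16th percentile of all genes), Psmb10 1.68-fold (-0.75) and Psmb9 1.53-fold (-0.62), while Psmb8 and Psme1 were at -0.29 and -0.35. In all 5 the signals of both GW cultures lay below those of both cultures without GW. That order held in 24 of the 35 members (68.6%) and in 37.7% of all genes. For the class II gene RT1-Bb, which passed the filter only through the cultures without GW, the order was fixed by the way it passed.

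Genes of the constitutive proteasome were lower beside them. Of 14 such genes past the filter, 13 were lower with GW, with a median of -0.40, where 57.8% of all genes were lower. At 1.5-fold 3 were lower and 0 higher, against 4.97% and 2.82% of all genes. Psma2, a structural α subunit, had 10.37 untreated, 10.26 with IFN-γ, 9.36 with GW and 9.43 with SHP siRNA, a difference with GW of -0.90 that exceeded that of any immunoproteasome gene. Psma1 (-0.64) and the β subunit gene Psmb3 (-0.59) followed, and Psme4, an alternative activator, was highest at 0.13. The catalytic subunits that the immunosubunits replace, named for that role after their values were seen, were at -0.36 (Psmb5), -0.39 (Psmb6) and -0.43 (Psmb7), against -0.29, -0.62 and -0.75 for Psmb8, Psmb9 and Psmb10. In 13 of the 14 constitutive genes both GW cultures lay below both others. Both kinds of proteasome were lower with GW, and whether the kinds differ could not be tested with 1 array a condition.

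**Figure D3:**
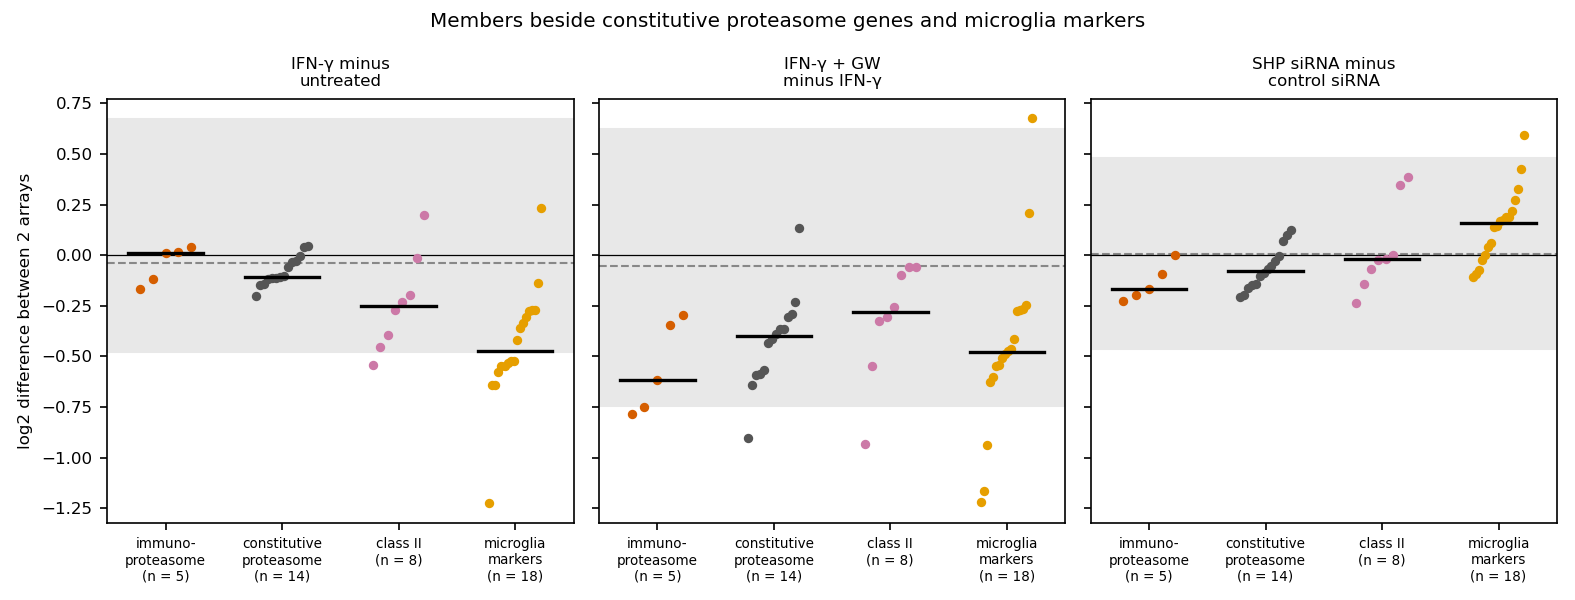
Log2 differences in the 3 main comparisons for immunoproteasome genes, constitutive proteasome genes, class II genes and microglia markers past the filter; points are genes, black bars medians, the dashed line the median and the grey band the middle 95% of 11790 genes. With GW the immunoproteasome and constitutive medians are -0.62 and -0.40, and with SHP siRNA the class II and microglia medians are -0.02 and 0.16.

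In peptide loading all 5 genes were lower with GW, with a median of -0.36. Tap1 was 1.39-fold lower (-0.48), at 9.19, near its untreated value of 9.12. An error in the 1 IFN-γ array alone could make such a gene look higher and then lower again. Tap2 and Tapbpl also ended near or below their untreated values, with differences of -0.33 and -0.36, and Tapbp and Erap1 were at -0.37 and -0.22. Of the chaperone and trimming genes around this step, 7 of 11 were lower and 4 higher, and the median was -0.04. This lay near all genes, of which 57.8% were lower, with a median of -0.05. At 1.5-fold 0 of the 11 were lower and 0 higher, against 4.97% and 2.82% of all genes. Bcap31, an export receptor, was lowest at -0.37 and Tpp2, a cytosolic peptidase, highest at 0.13. Canx, which encodes calnexin, a chaperone of folding heavy chains, was at 0.05.

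Among class I heavy chains and B2m 13 of 16 were lower with GW, with a median of -0.15. RT1-M3-1, the relative of the mouse gene whose product presents formylated peptides, had 7.84 untreated, 8.10 with IFN-γ, 7.18 with GW and 7.51 with SHP siRNA. Its IFN-γ value was the highest and its GW value the lowest, 1.89-fold apart (-0.92, at the 1.30th percentile). RT1-S3 had 10.85, 10.80, 10.21 and 10.01, a difference of -0.59 with GW, and RT1-T24-3 was at -0.47 (10.10 and 9.63). The genes above 0 were RT1-T18 (0.36), RT1-T24-2 (0.25) and RT1-CE2 (0.01), all with signals between 5.89 and 6.48, near the table median. B2m differed by -0.06, and lay above 0 in centred arrays and after cyclic loess.

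All 8 class II genes past the filter were lower with GW, with a median of -0.28. However, RT1-DMa and RT1-Ba lay above 0 in centred arrays, RT1-DMa after quantile normalization, and RT1-DMa and Cd74 after cyclic loess. RT1-Bb passed the filter only through the cultures without GW, so its lower value was fixed by the way it passed. The 4 class II genes below the filter lay above 0 with GW: RT1-DOa (0.06), RT1-DOb (0.16), RT1-Db2 (0.29) and RT1-Ha (0.43). Ctss, the protease that trims the invariant chain, had 10.13 untreated, 9.93 with IFN-γ, 9.00 with GW and 9.39 with SHP siRNA. The GW culture was lowest, 1.91-fold below IFN-γ alone (-0.93, at the 1.22nd percentile), and this was the widest GW difference of all 35 genes. RT1-Da was 1.46-fold lower (-0.55), RT1-DMb -0.32 and RT1-Db1 -0.30, whereas Cd74 (-0.10), RT1-DMa (-0.06) and RT1-Ba (-0.06) differed little. Of 9 other genes of endosomal class II processing 8 were lower with GW, with a median of -0.21, where 57.8% of all genes were lower. At 1.5-fold 0 of the 9 were lower and 1 higher, against 4.97% and 2.82% of all genes. The lowest were the cathepsin gene Ctsl (-0.40) and the thiol reductase gene Ifi30 (-0.40). Marchf1, a ligase that sends class II to degradation, ran the other way, at 6.96 untreated, 5.66 with IFN-γ and 6.35 with GW, a difference of 0.69 with GW after -1.30 with IFN-γ.

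Markers of microglia, a cell type known to carry class II, were lower in the same comparisons as the class II genes. Although the cultures had been treated to deplete microglia, 18 of 19 marker genes were measured and past the filter, with median log2 signals of 9.88 untreated, 9.30 with IFN-γ, 8.72 with GW and 8.75 with SHP siRNA. With IFN-γ 17 of the 18 were lower (median -0.47, 1 by at least 2-fold, Cx3cr1 at -1.23). With GW 16 were lower (median -0.48, 2 by at least 2-fold, Tyrobp at -1.22 and Ptprc at -1.16). Some of these genes moved in opposite directions in the 2 comparisons. Cx3cr1 was the highest marker with GW, at 0.68, and Tmem119 also lay above 0. Ptprc was the 1 marker that was higher with IFN-γ, at 0.23. Of all genes 59.8% and 57.8% were lower in these comparisons, and 1.90% and 1.91% differed by 2-fold in either direction. Of 10 astrocyte markers, 8 were higher with IFN-γ and 7 lower with GW, with medians of 0.10 and -0.19, and Gfap, the astrocyte filament gene, lay between 12.03 and 12.11 on all arrays. Dendritic and B cell markers were near the table median, with medians between 5.83 and 5.99 over 5 genes. The part of the microglia in the class II values was not tested.

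**Figure D4:**
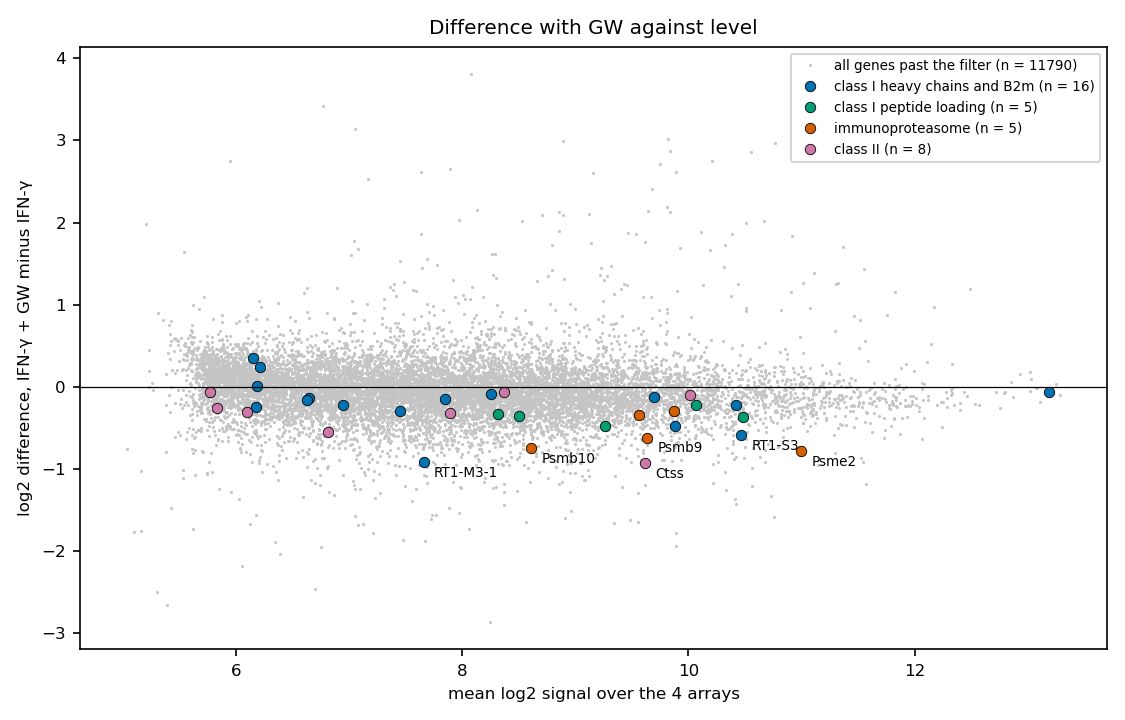
Log2 difference between the IFN-γ with GW and IFN-γ cultures against the mean log2 signal over the 4 arrays; grey points are 11790 genes past the filter and coloured points are members by group, with the 6 members at least 1.5-fold lower named. All 19 members with a mean of at least 8 lie below 0, of which B2m and RT1-DMa lie above 0 in centred arrays, and Cd74 as well after cyclic loess.

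With SHP siRNA most of these genes stayed near or below their values with control siRNA. Compared with control siRNA under the same IFN-γ and GW, 27 of 35 genes were lower and 8 higher, where 48.4% of all genes were lower. None reached 2-fold or 1.5-fold (0 higher and 0 lower, against 0.407% of all genes at 2-fold and 1.42% higher and 1.20% lower at 1.5-fold). The median was -0.09 against 0.01 for all genes. Of the 35, 24 had their lowest signal of the 4 arrays in the SHP siRNA culture, where 27.7% of all genes did. RT1-Ba and RT1-Bb, among the 24, passed the filter only through cultures without GW. Their SHP siRNA values were therefore bound to lie below their untreated values. The comparison of SHP siRNA with control siRNA shares the culture with IFN-γ and GW with the comparison above, so its error enters both with opposite signs.

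Of the 5 immunoproteasome and 5 loading genes, 4 each were lower with SHP siRNA, and Psme2 also lay below 0 in centred arrays and after cyclic loess. The immunoproteasome median was -0.17, with values from -0.22 (Psmb8) to 0.00 (Psme2), and the constitutive proteasome median was -0.08 with 11 of 14 lower. Tapbp was at -0.43, the lowest of the loading genes and at the 3.04th percentile of all genes, and the loading median was -0.12. Among class I heavy chains and B2m 12 of 16 were lower, with a median of -0.07. The lowest were RT1-T18 (-0.58, 6.48 and 5.89) and RT1-N3, whose signals were 8.22 untreated, 8.01 with IFN-γ, 7.86 with GW and 7.33 with SHP siRNA. RT1-N3 was at -0.53, the 1.62nd percentile.

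The genes that were higher with SHP siRNA were few. Ctss was at 0.39, which placed it at 9.39 between its GW value of 9.00 and its IFN-γ value of 9.93. RT1-Db1 was at 0.35 and RT1-M3-1 at 0.33, the latter again between its values with and without GW. RT1-CE10 (0.25) and RT1-T24-2 (0.17) followed. The class II genes had no clear direction, with 6 of 8 lower, a median of -0.02 and a mean of 0.03. Of the microglia markers 14 of 18 were higher and 4 lower, where 48.4% of all genes were lower. Their median was 0.16, with Ptprc at 0.59 and Ly86 lowest at -0.11. The astrocyte markers had a similar median of 0.14, with 6 of 10 higher, 4 lower and Aqp4 highest at 0.71. Of 7 meningeal and fibroblast markers 5 passed the filter, and all 5 were higher, with a median of 0.48 and Postn highest at 1.43. The part of these cells in the members' values was not tested. Cd74, RT1-DMa, RT1-DMb and RT1-Da, at -0.02, -0.07, 0.00 and -0.02, stayed near 0. Irf1 and Irf8 were at 0.34 and 0.55 with SHP siRNA, while Nlrc5 and Ciita were at -0.16 and -0.23.

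Against the untreated culture most members ended lower. In the culture with control siRNA, IFN-γ and GW 26 of 35 were lower, with a median of -0.29, and in the SHP siRNA culture 30 of 35, with a median of -0.41, where 60.3% and 59.2% of all genes were lower. In the SHP siRNA culture the log2 difference from untreated was -0.90 for Psmb10, -0.96 for RT1-Da, -0.89 for RT1-N3, -0.86 for RT1-DMb and -0.84 for RT1-S3, and no member past the filter reached 2-fold (0 of 35, against 2.48% of all genes). In the culture with control siRNA, IFN-γ and GW the lowest were Ctss (-1.13, 1 of 35 past 2-fold, against 2.49% of all genes) and RT1-Da (-0.94). The members above their untreated value included RT1-T18 (0.38) with control siRNA, and RT1-T24-2 (0.32 with control and 0.49 with SHP siRNA), RT1-CE11 (0.32 and 0.20) and RT1-CE4 (0.28 and 0.06) in both cultures. Tap1 differed from its untreated value by 0.07 with control and -0.06 with SHP siRNA. These differences share the untreated array with the IFN-γ comparison. RT1-Ba and RT1-Bb passed the filter only through cultures without GW, so their lower values against untreated were fixed by the way they passed.

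The 19 dim members, 14 of them class I heavy chain genes, 4 class II and Ciita, varied in both directions. RT1-M6-1 had 4.70 untreated and 3.54 with IFN-γ, and was the only one of the 54 past 2-fold in a main comparison (-1.16, against 1.38% of 18166 genes past 2-fold with IFN-γ). RT1-CE13 (0.70) and RT1-CE3 (0.69) were the highest with IFN-γ, and RT1-M1-2 (0.82) and RT1-T24-1 (0.79) with GW. RT1-T24-4 was lowest with SHP siRNA, at -0.84. RT1-DOa and RT1-DOb, which encode the DM inhibitor DO, stood between 4.76 and 5.77. RT1-M1-4, RT1-M1-5, RT1-M10-1, RT1-M4, RT1-M5, RT1-M6-2, RT1-O1, RT1-Db2 and RT1-Ha lay between 3.45 and 5.56, with differences from -0.52 (RT1-Ha with SHP siRNA) to 0.43 (RT1-Ha with GW). Whether such signals exceed array background is unknown, and these sizes are uncertain. Of all 54 genes 30 lay above 0 and 24 below with IFN-γ, 14 and 40 with GW, and 17 and 37 with SHP siRNA. Of all 18166 genes, 56.3%, 49.9% and 51.4% lay below 0 in these comparisons.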

How the data were processed

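The authors deposited 1 value per probe and array, taken here as log2 signal because the values run from 1.14 to 13.4. The log base, background correction, probe summary and normalization are not stated in the sources that were used. Per the labels' protocols, biotin-labelled sense cDNA of 4 cultures was hybridised. A GEO platform annotation named probes: 18511 had 1 symbol, 575 several and 10403 none. Current symbols came from RefSeq (GRCr8), and the probe with the highest mean stood for a gene. Of 18166 genes, 11790 reached the table median of 5.83 on at least 1 array. Each comparison is a difference between 2 arrays, with no test. The members, gene lists and motifs were chosen with earlier results of these data known. The rule for named genes took all members, the MHC promoter factors and markers, and of other pathway lists up to 3 highest and 3 lowest genes a comparison. Psmb5, Psmb6 and Psmb7 fall outside it and were named after their values were seen. Alternatives were quantile normalization, median centring and cyclic loess (limma 3.58.1, R 4.3.3), other filters, folds and summaries. Python 3.11.15 did the other steps, which were tested on simulated data. A pseudocount was not needed.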

Additional observations from a re-analysis of the deposited data

How the results depend on the processing

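Each result had 1 array a condition, so no alternative changes a test. Of 96 group medians recomputed, 93 moved by less than 0.1 log2. The exceptions were the class I heavy chain and B2m medians over the 4 listed genes past the filter alone (-0.369 with GW and -0.079 with IFN-γ, from -0.15 and 0.03) and the class II median with GW without a filter, -0.0788 over 12 genes from -0.28 over 8. Of 85 counts, 77 stayed within 1.5 times. With GW the members above 0 numbered 3, but 6 after median centring, 5 after cyclic loess and 14 without a filter. Without a filter, which adds dim genes, those above 0 were 30 with IFN-γ and 17 with SHP siRNA, from 18 and 8, and 1 gene was at least 2-fold lower with IFN-γ. At 1.5-fold 6 genes were lower with GW, from 0 at 2-fold. Over the members with a mean of at least 8, an alternative added after seeing the data, 19 of 19 were lower with GW, from 32 of 35. The sign also turned for the means of the immunoproteasome with IFN-γ (-0.04) and of class II with SHP siRNA (0.03). No paired analysis was possible because each condition has 1 array. A pseudocount was not run, the values being logarithmic. The unknown background limits what can be read below 5.83.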
